A study of Mus musculus with 2 samples.

Results

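miR-574-5p and miR-574-3p (mmu-miR-574-5p and mmu-miR-574-3p on the array) are the arms of a single mouse microRNA hairpin. They were measured in cultured MDSCs, the myeloid-derived suppressor cells, a population of immature myeloid cells known for dampening T cell responses. They are 2 of the 1080 miRNA names on the array (1023 mouse and 57 viral), taken by exact match of the scanner files' systematic name. The pair was chosen by its signal on these arrays, very unequal between the arms, so the levels, the detection calls and the change of each arm are a description and carry no test. The starting material was bone marrow from C57BL/6 mice, kept in culture for 4 days with 5% serum and either with 40 ng/ml GM-CSF alone or with 40 ng/ml GM-CSF and 40 ng/ml IL-6. GM-CSF is a growth factor for myeloid cells that both cultures received, and IL-6 is an inflammatory cytokine that 1 of them received in addition. Each condition is represented by 1 single-colour Agilent array of total RNA (labelled as biological replicate 1), both on 1 slide and in 1 scan. No difference between the cultures therefore has a replicate check, and the errors below come from replicate spots within an array. Fewer cells carrying a miRNA and less of it per cell cannot be told apart in such bulk RNA.

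A miRNA hairpin is trimmed to a short duplex, and either strand of that duplex, the 5p or the 3p arm, can be loaded into an Argonaute protein and guide it to target mRNAs through its seed, bases 2 to 8. In most hairpins 1 strand is kept and the other is degraded. In human cells miR-574-5p, which is rich in GU repeats, has been described as a decoy for the RNA-binding protein CUGBP1, and the CA-rich miR-574-3p as a decoy for hnRNP L. Those roles are background and were not measured here.

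The sequences below are RefSeq's for GRCm38.p6. They are shown because the arms differ in base composition as well as in signal. The hairpin lies on the plus strand at chr5:64970318-64970395, with its mature arms in capitals and the loop between them in lower case:
mmu-mir-574: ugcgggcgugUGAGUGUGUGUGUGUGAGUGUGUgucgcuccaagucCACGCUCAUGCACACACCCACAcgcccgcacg
The 5p arm has 23 bases (chr5:64970328-64970350) and the 3p arm 22 bases (chr5:64970364-64970385). Their seeds are in capitals:
miR-574-5p: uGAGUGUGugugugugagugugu
miR-574-3p: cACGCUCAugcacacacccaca
The hairpin falls inside the span of Fam114a1 on the same strand, 243 bases after that gene's start, and inside the span of Tlr6, a Toll-like receptor gene read from the opposite strand. The table used gives gene spans and not exons, so whether the hairpin is intronic was not determined here. Of the bases of miR-574-5p 91.3% are U or G, and of the bases of miR-574-3p 81.8% are C or A. Among the 794 mouse names with a RefSeq mature sequence, 0 others share the seed of miR-574-5p and 0 others share that of miR-574-3p.

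miR-574-5p was among the brightest miRNAs of both cultures. Each name on the array has 40 spots, and its level is the sum of the scanner software's total signals over its probes, in background-subtracted intensity units. The level of miR-574-5p was 8070 with GM-CSF plus IL-6 and 7879 with GM-CSF only. It ranked 3 of 1080 names on each array and held 5.93% and 5.62% of the detected signal. The next brighter name on both arrays was miR-466i-5p (17953 and 17305). The next dimmer was miR-720 with IL-6 (6466) and miR-223-3p, a miRNA of granulocytes and their precursors, without it (6807). The gaps to these neighbours were at least 10.8 times the combined standard error over spots. That error leaves out the difference between probes, so the rank depends on the probes summed. With GM-CSF only, mean spots were 8464 on A_54_P3153 and 11986 on A_54_P3154, on either side of 8834 for miR-223-3p.

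The signal came from both probes of the arm, which have 20 spots each. On probe A_54_P3153 the spots ran from 7827 through a median of 8612 to 9557 with IL-6, and from 7752 through 8549 to 9270 without it. On probe A_54_P3154 they ran from 11569 through 12613 to 13521 with IL-6, and from 9699 through 12250 to 13690 without it. Spots of the cultures overlapped on both probes, and the 2 probes did not overlap each other. All 40 spots were well above background on each array and 0 were saturated. The coefficient of variation over spots was between 3.99% and 7.64%.

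miR-574-3p gave almost no signal by comparison, and the scanner software called it detected in 1 culture only. Its level was 14.8 with GM-CSF plus IL-6, the 72nd dimmest of 308 detected names, and 2.90 with GM-CSF only, where it was not detected. It ranked 237 with IL-6 and 401 without it. Neither neighbour in that order differed from it by more than 0.18 of the combined spot error with IL-6 (miR-291b-5p and miR-484) or by more than 0.03 without it (miR-409-3p and miR-1901). Probes of different arms can bind and label with different efficiency, so the signals of the arms rank the probes' brightness and are not a ratio of RNA molecules.

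The difference between cultures appeared on each of the 4 probes of miR-574-3p, which have 10 spots each. On A_54_P3156 the spots ran from 7.01 through a median of 14.9 to 23.1 with IL-6 and from -1.75 through -0.72 to 2.76 without it. On A_54_P3157 they ran from 7.62 through 18.4 to 22.6 with IL-6 and from -0.049 through 4.04 to 6.89 without it. The cultures did not overlap on either of these probes. On A_54_P3158 the spots ran from 11.7 through 20.6 to 37.8 with IL-6 and from -9.85 through 6.37 to 18.5 without it, so some overlapped. On A_54_P3159 they ran from 17.5 through 23.2 to 25.7 with IL-6 and from -0.71 through 6.06 to 13.3 without it, with no overlap. Probes and spots are repeated readings of 1 RNA sample per culture and are not replicates of the condition.

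**Figure D1:**
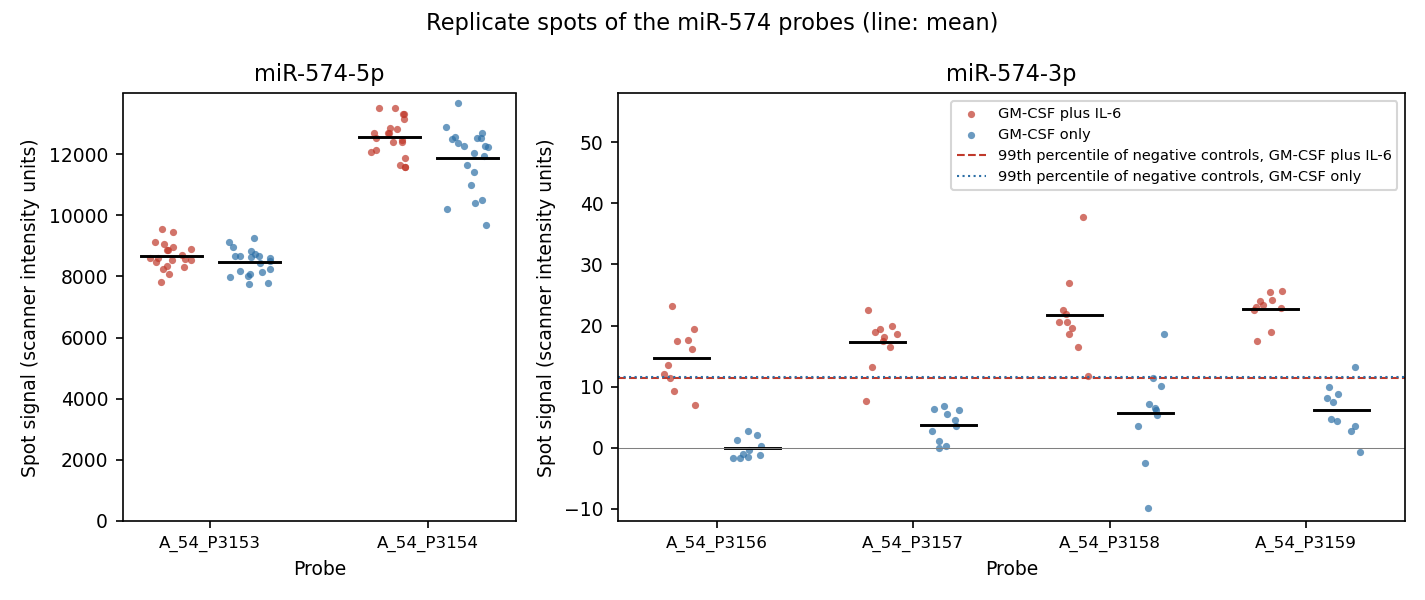
Each point is the background-subtracted signal of 1 spot in scanner intensity units (linear axes), by probe and culture, and black lines are means of all spots drawn; horizontal lines in the miR-574-3p panel mark the 99th percentile of negative control spots. The miR-574-5p spots lie between 7752 and 13690 in both cultures, while those of miR-574-3p lie between 7.01 and 37.8 with IL-6 and between -9.85 and 18.5 without it.

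Negative control spots, which hold no miRNA probe, give the scale of this dim signal. After removal of outlier spots they had a mean of 1.99 ± 3.71 (SD, 974 spots) with IL-6 and 2.61 ± 3.82 (SD, 991 spots) without it, and their 99th percentiles were 11.5 and 11.5. Of the 40 miR-574-3p spots, 37 exceeded that percentile with IL-6 and 2 did so without it. The highest negative control spot left after that removal was 17.3 with IL-6 and 17.6 without it, and 29 spots and 1 spot of miR-574-3p were above it. The miR-574-3p counts keep outlier spots, so they were not filtered as the controls were.

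Detection turned on a small margin. A probe counts as detected when its total exceeds 3 times its deposited error. With IL-6 the 4 totals of miR-574-3p were 3.18, 3.86, 4.40 and 4.71 times their errors, so all 4 probes passed. With GM-CSF only the multiples were -0.12, 0.85, 1.29 and 1.43, and 0 probes passed. The software's flag for positive and significant spots was set on 40 of 40 spots with IL-6 and on 19 without it. Its stricter flag for spots well above background was set on 14 of 40 spots with IL-6 and on 0 without it. Under a rule that asks for that flag on at least 50% of spots, miR-574-3p was detected in neither culture.

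Detection in the IL-6 culture alone applied to 16 of the 1080 names (1.48%), and detection in the other culture alone to 9 (0.833%). Among the 779 names not detected with GM-CSF only, 16 (2.05%) were detected with IL-6, and 292 names (27%) were detected in both cultures. The pair was chosen for this contrast, so nothing is read from the place of miR-574-3p among them.

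For the change with IL-6, levels were scaled to the 75th percentile of each array, taken over the 292 names detected on both. Log2 ratios have the IL-6 culture as numerator. For miR-574-5p it was 0.22 ± 0.02 (spot SE). The median over the 292 names was 0.12, so the value relative to all detected names was 0.10, which placed it 95th of 292 from the highest ratio. Of the 292 names 4 (1.37%) were higher by 2-fold or more in the IL-6 culture, and 0 (0%) were lower by as much. miR-574-5p was far from either limit. Its probes gave 0.20 and 0.23. The direction before centring depends on the scaling, at -0.048 when the percentile is taken over all names and 0 after quantile normalization, while uniform scalings leave the value relative to the median of all unchanged by construction. That relative value was 0.051 after quantile normalization, 0.11 after loess and 0.12 from mean log2 spot signals.

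For miR-574-3p the measured log2 ratio was 2.54 ± 0.28 (spot SE), from a value without IL-6 that the software did not call detected. After scaling, its level with IL-6 was 4.52 times the lowest detected level of the GM-CSF only array (3.73 before scaling, above its own 2.90). This value is not a lower limit of the change. The software's detection calls did not follow signal alone, since miR-3067-3p was undetected on that array at 10.3. Detection in the IL-6 culture alone and such a value of at least 2 were found together for 9 of the 1080 names (0.833%). In plain signal the mean spot of miR-574-3p was 19.5 ± 0.7 (SE) with IL-6 and 3.8 ± 0.7 (SE) without it, a difference of 15.8 ± 1.0 (SE), with outlier spots left out. By probe the difference was 15.3, 14.6, 16.0 and 17.1. Among the 763 names detected in neither culture that difference had a median of -0.46, with 5th and 95th percentiles of -1.96 and 1.45 and a highest value of 7.54. Those names exclude all that were detected with IL-6 only, as miR-574-3p was, so they are no reference range for its difference.

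**Figure D2:**
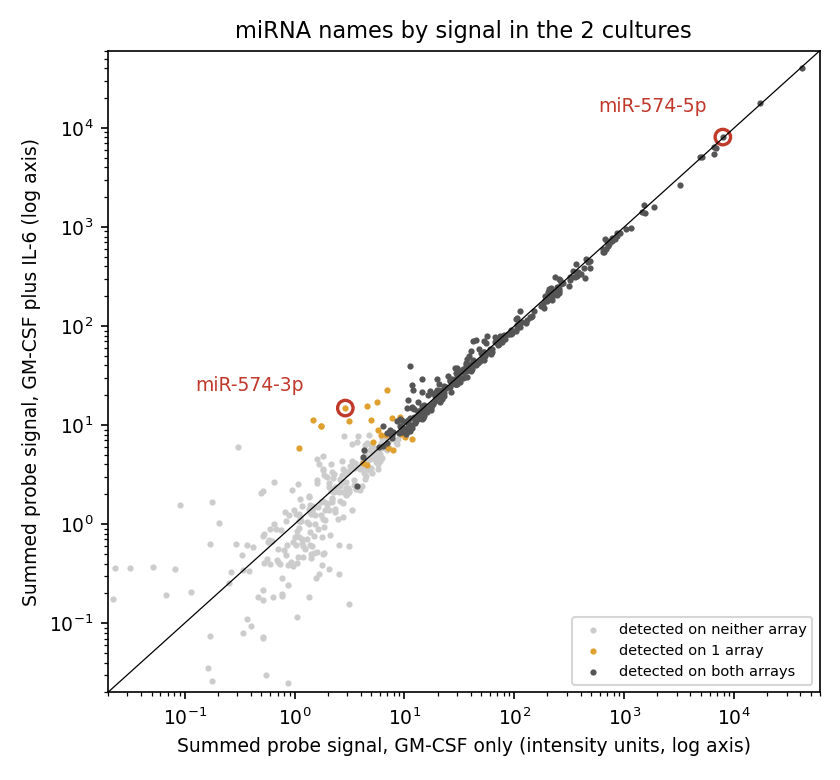
Each point is a miRNA name with positive signal on both arrays, at its summed probe signal (intensity units, log axes, before scaling) with GM-CSF only and with GM-CSF plus IL-6, and the line marks equal signal. The very dimmest names fall outside the axes. miR-574-5p sits on the line at 7879 and 8070, and miR-574-3p lies above it at 2.90 and 14.8.

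Names at a level like that of miR-574-5p were found by the summed distance in log2 level over the 2 arrays. The nearest 5 mouse names detected on both were miR-223-3p (distance 0.58), miR-720 (0.60), miR-21-5p (0.83), miR-1187 (1.30) and miR-3082-5p (1.35). Relative to the median of all, their log2 ratios were -0.06 for miR-223-3p, 0.06 for miR-720, -0.17 for miR-21-5p, 0.06 for miR-1187 and 0.11 for miR-3082-5p. Nearest to miR-574-3p, whether detected or not, were miR-7b-3p (1.01), miR-485-3p (1.16), miR-669p-3p (1.16), miR-466i-3p (1.32) and miR-466f-3p (1.33). Of these 5, miR-7b-3p was detected in neither culture and the other 4 with IL-6 only. With 2 arrays such likeness says little beyond the level itself.

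Most hairpins with both arms on the array showed signal on at most 1 of them. Among 291 hairpins whose 2 arms match a RefSeq mature name, both arms were detected in 19 with IL-6 and 22 without it, the 5p arm alone in 60 and 57, and the 3p arm alone in 51 and 50. miR-574 was among the 19 with IL-6 and among the 57 without it. Within the 19, the median absolute difference between arms was 1.33 on the log2 scale of signal, and miR-574, chosen for this trait, had the largest at 9.09. The bright arms of miR-223, miR-3082, miR-1224 and miR-15b also stood far above their partners, none of which was detected in either culture. Their gaps, and that of miR-574 with GM-CSF only, therefore have no measured size, and no order is drawn among them. The bright arm was 3p for miR-223 and 5p for miR-574 and the other 3. An arm detected in the IL-6 culture alone was found in 5 hairpins, and an arm detected in the other culture alone in 7.

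**Figure D3:**
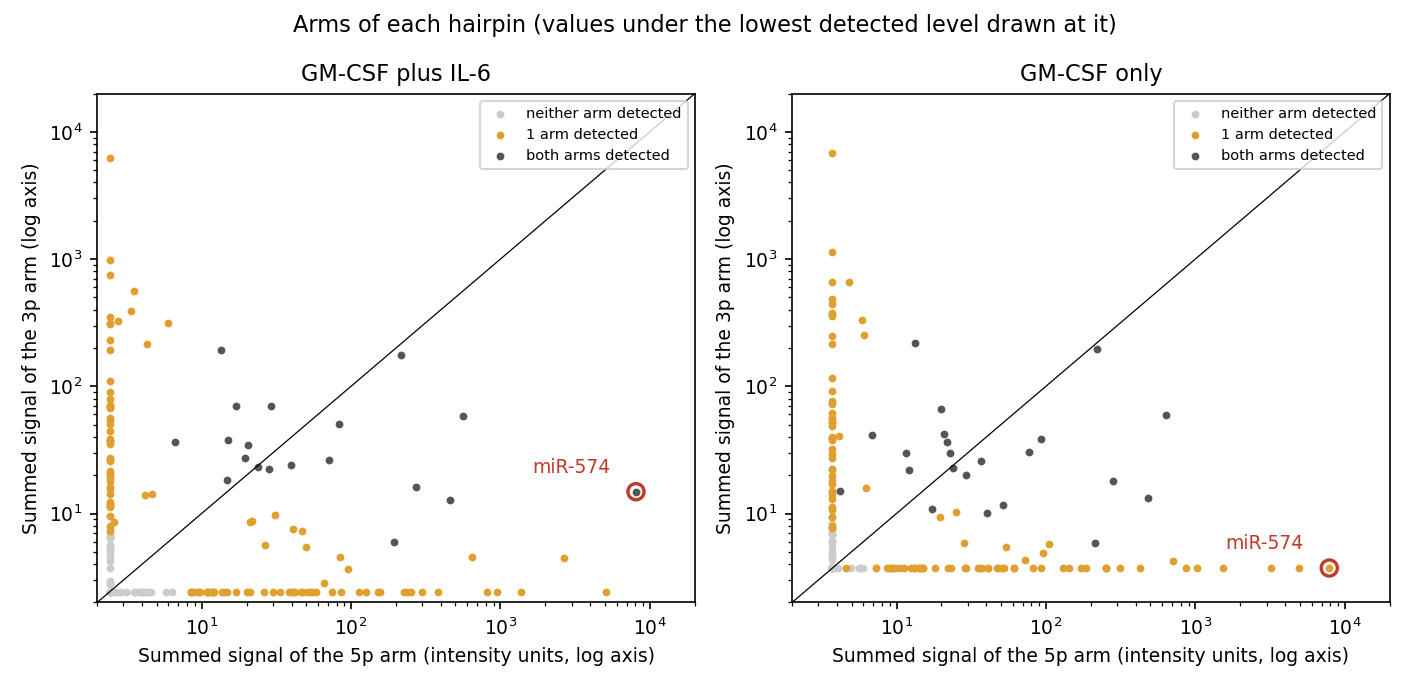
Each point is 1 of 291 hairpins, at the summed signal of its 5p arm and of its 3p arm (intensity units, log axes) in each culture, with values under the lowest detected level drawn at that level. miR-574 lies at the far right of both panels, with both arms detected with IL-6 and the 5p arm alone detected with GM-CSF only.

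The repeats in the arms were then set against all names with a sequence. The thresholds were chosen after the values had been seen, and names without a RefSeq sequence, among them miR-466i-5p, were left out. miR-574-5p holds an alternating run of U and G of 13 bases, the longest of the 794 names. It is followed by miR-1187 with 11, miR-3082-5p with 10 and miR-32-3p with 9, as is miR-466k. The runs are in capitals:
miR-574-5p: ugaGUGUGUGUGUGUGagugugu
miR-1187: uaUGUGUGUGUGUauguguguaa
miR-3082-5p: gacagaGUGUGUGUGUcugugu
miR-32-3p: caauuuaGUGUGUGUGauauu
miR-466k: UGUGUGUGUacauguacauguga
miR-669n: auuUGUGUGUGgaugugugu
Names with the longest such runs were mostly detected, at levels that differed widely. The levels were 5089 with IL-6 and 5086 without it for miR-1187. They were 5085 and 4916 for miR-3082-5p, 753 and 662 for miR-32-3p, and 1658 and 1499 for miR-669n, whose run is 8 bases. Runs of 8 bases were also found in the less bright miR-672-5p (300 and 254) and miR-3097-5p (57.9 and 48.0). miR-466k was the exception, with -2.38 and -1.56, detected in neither culture although its run of 9 bases equals that of miR-32-3p.

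Of the 11 names with a run of U and G of at least 7 bases, 10 were detected in both cultures (9 of 10 without miR-574-5p, which was chosen for its signal), against 198 of 783 names (25.3%) with shorter runs. A level above 1000 on both arrays was reached by 4 of the 11 (3 of 10 without miR-574-5p) and by 3 of the 783. All 10 detected names lay above the median log2 ratio of the 292, with relative values from 0.06 for miR-1187 to 0.48 for miR-294-3p and a median of 0.24. Without miR-574-5p these were 9 of 9 with a median of 0.25, while 81 of the 198 detected names with shorter runs lay above that median. The names share repeat sequence and are not independent readings. Cross-hybridization between their probes was not tested.

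miR-574-3p carries an alternating run of C and A of 7 bases, a length that 4 other names reach or exceed. All 5 are shown with the run in capitals:
miR-574-3p: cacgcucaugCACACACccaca
miR-467f: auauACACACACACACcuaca
miR-466i-3p: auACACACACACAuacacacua
miR-467g: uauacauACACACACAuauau
miR-672-3p: ACACACAgucacuaucuucga
Of these 5, 3 were detected in the IL-6 culture alone and 0 in both cultures, while 6 of the 789 names with shorter runs were detected with IL-6 only. Without miR-574-3p, which was chosen for that contrast and whose run length set the minimum, 2 of 4 were. The level of miR-467f was 22.7 with IL-6 and 6.95 without it, and that of miR-466i-3p 9.82 and 1.76. The remaining pair, miR-467g and miR-672-3p, had negative levels in both cultures (-1.31 and -1.20 for miR-467g, -1.30 and -1.80 for miR-672-3p).

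By difference in mean spot signal, miR-467f had 20.8 ± 0.9 (spot SE), miR-574-3p 15.8 ± 1.0 and miR-466i-3p 10.6 ± 0.8. These were the highest among the 577 names with a sequence that were not detected with GM-CSF only, followed by miR-485-3p at 8.50. miR-574-3p was chosen for this contrast and the list after its values were seen, so nothing is read from that order. Over all 779 names not detected with GM-CSF only, 3 names whose sequence was not used here lay between miR-574-3p and miR-466i-3p, namely miR-669p-3p (15.0), the viral mcmv-miR-m01-2 (14.7) and miR-466g (12.8). A further 2, miR-466f-3p (10.5) and the viral mghv-miR-M1-11-5p (10.3), lay between miR-466i-3p and miR-485-3p. The 572 names with shorter CA runs had a median of -0.46. miR-672-3p and miR-467g stood at 0.62 ± 0.90 and -0.16 ± 0.74. The part that shared repeat sequence plays in these differences was not tested.

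**Figure D4:**
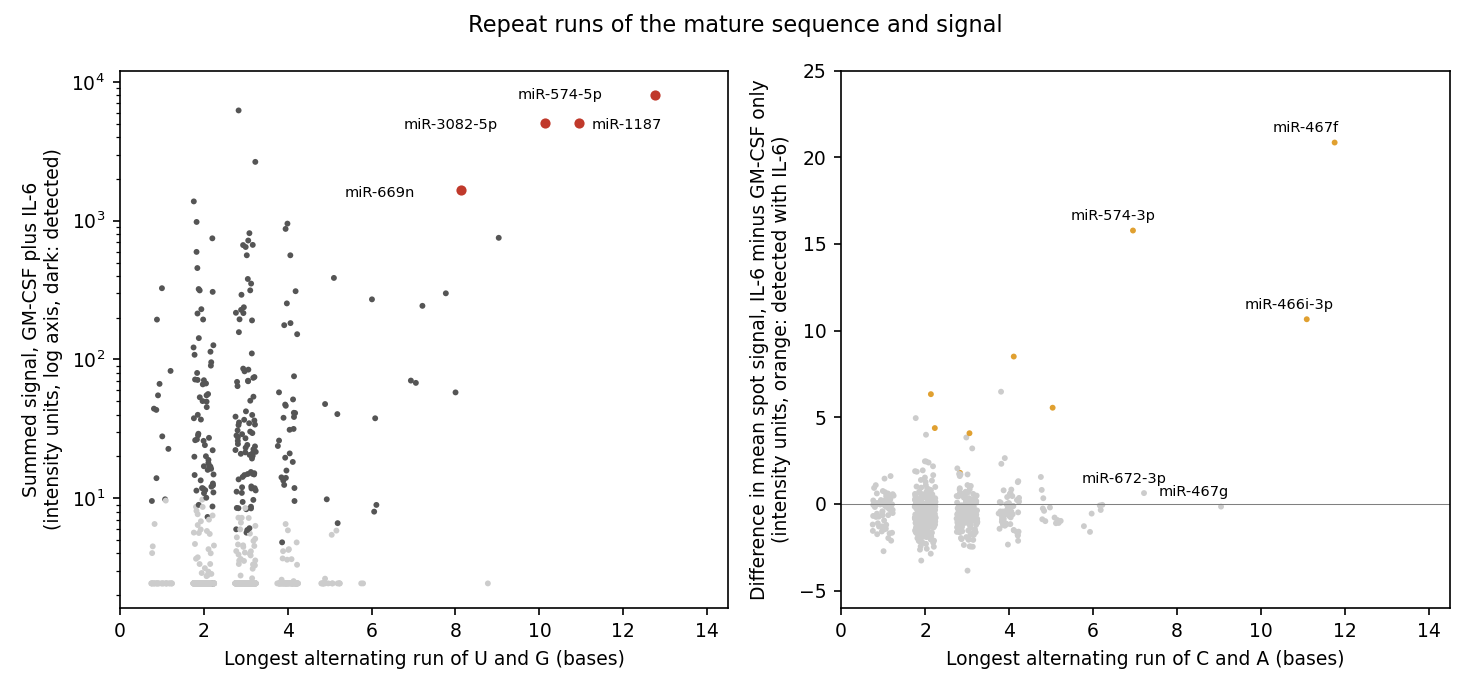
Left, the summed signal with GM-CSF plus IL-6 (log axis, values under the lowest detected level drawn at it) against the longest alternating run of U and G for 794 mouse names, dark where detected; right, the difference in mean spot signal (GM-CSF plus IL-6 minus GM-CSF only) against the longest run of C and A for the 577 names with a RefSeq sequence not detected with GM-CSF only, orange where detected with IL-6. Points are spread sideways at random within each run length. miR-574-5p holds the longest U and G run at a level of 8070. Among the 577 names drawn on the right, miR-467f, miR-574-3p and miR-466i-3p have the largest differences, 20.8, 15.8 and 10.6.

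The identity of the cells was checked on marker miRNAs. All 3 names taken as myeloid markers (miR-223-3p and both arms of the miR-142 hairpin) were detected in both cultures. Their summed level was 7899 with IL-6 and 8535 without it, mostly miR-223-3p (6239 and 6807). The arms of miR-142 are not separate markers, and whether they mark myeloid cells alone was not tested. Of 4 stromal markers (miR-143-3p, miR-145-5p, miR-199a-3p and miR-214-3p) 0 were detected in either culture. That count depends on the arm taken. The opposite arm miR-214-5p was detected in both cultures (41.3 with IL-6 and 40.9 without it), and miR-143-5p with IL-6 only (6.68). The opposite arms miR-145-3p and miR-199a-5p were detected in neither. Markers of other cell types had lower summed levels than the myeloid ones, but many were detected in both cultures. Those were 1 of 2 erythroid, 2 of 2 epithelial and 1 of 3 muscle markers. The single lymphoid, liver, and endothelial and megakaryocyte markers were detected in both as well. Summed levels were 6.88 and 9.11 for the erythroid, lowered by the negative values of undetected miR-144-3p, and 20.9 and 22.8 for the epithelial. They were 54.2 and 62.6 for the lymphoid, 11.5 and 9.15 for the liver, and 11.0 and 12.8 for the endothelial and megakaryocyte markers. The muscle sum was 68.7 and 57.7, nearly all from miR-206-3p, which itself has a U and G run of 7 bases. The lymphoid miR-150-5p and miR-206-3p (67.8 and 55.5) exceeded the median level of detected names, 36.6 and 36.7. The part of any such cells in the miR-574 signals was not tested.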

How the data were processed

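Per the file headers, the deposited scanner files are 1-colour output of Agilent Feature Extraction 10.7.1.1, whose intensity values are background-subtracted and spatially detrended, with no scaling between arrays. The probe total was the mean of a probe's spots times their number times a constant (0.0190 with IL-6 and 0.0193 without it). The deposited flags (0 or 1) mark detection, outliers and saturation. The authors' value table holds log2 values. The log2 of the probe sum exceeded them by 6.28 on both arrays for miR-574-5p and in the median over detected names. The origin of this constant is unstated. It did not hold for every name, since names at least 2-fold higher numbered 7 in that table and 3 from unscaled probe sums. The column medians of the authors' table were -9.60 and -9.60, which is the floor for undetected names.

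Levels, scaled ratios and spot errors (outlier spots left out) were computed with Python 3.11.15, numpy 2.4.6, pandas 2.3.3 and, for normexp, limma 3.58.1 in R 4.3.3. The scaled percentiles were 160 and 182. No test was run between the cultures, and 1 array each limits the precision. Code was tested on simulated data. The members, lists and rules were chosen with earlier results of these data known. Named besides the arms were the 5 nearest names in level to each, the 5 hairpins with the widest gap, names sharing a seed and the 8 brightest names with a U and G run at least as long (miR-574-5p itself alone). The other names with long U and G or C and A runs, the names near miR-574-3p in spot difference and the neighbours in rank were chosen after their values were seen. Of 1023 mouse names 794 matched a RefSeq mature sequence by name.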

Additional observations from a re-analysis of the deposited data

How the results depend on the processing

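The log2 ratio of miR-574-5p was 0.22 and that of miR-574-3p 2.54. For miR-574-5p, scaling by the 75th percentile over all names gave -0.048, the median 0.011, no scaling 0.035, quantile normalization 0, loess 0.10, the mean log2 spot signal 0.13, the authors' deposited values 0.033 and the gene totals 0.10. The uniform scalings shift every name alike, and quantile normalization gives 0 because its rank is 3 on both arrays. For miR-574-3p the GM-CSF only value was not called detected, so its ratios are not measured folds and their shared direction is no sign of stability. They ran from 0.40 under normexp with an offset of 50, which draws dim ratios toward 0 by construction, to 2.80 on even spots. The authors' table and the gene totals give it no ratio, since its GM-CSF only value is a floor there, and neither does probe A_54_P3156, whose total was negative. The count of names at least 2-fold higher (4) was 2 with scaling over all names or by the median, 0 under normexp, 7 in the authors' table and 16 at 1.5-fold. The count at least 2-fold lower (0) was 1 in the authors' table and 5 with gene totals. The gene totals did not match the probe sums for every name. For let-7d-3p they were 227 with IL-6 and 13.2 without it, against levels of 12.8 and 13.2. Names detected in the IL-6 culture alone (16) numbered 12 when 50% of spots had to be well above background and 19 when the flag and 1 such spot were required, and those of the other culture (9) numbered 7 and 7. No paired analysis was possible because each group has 1 array. For miR-574-3p 14 of 40 spots with IL-6 and 0 without it were well above background.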
